A study of Homo sapiens with 4 samples.

Results

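Solute carriers are membrane proteins that move nutrients, ions, metabolites and metals across the plasma membrane and the membranes of organelles. The members described here were chosen by name and by input level. They are the genes whose symbol begins with SLC and a digit and whose level was 1 FPKM (fragments per kilobase of transcript, scaled to library depth) or more in at least 1 of both input libraries. A group of 8 SLC genes was left out by name (SLC7A11, SLC3A2, SLC2A1, SLC45A2, SLC24A5, SLC39A14, SLC40A1 and SLC11A2). Of 271 SLC genes in the table, 96 others lay below the level and 167 were members, out of 14416 genes in the table and 10564 that reached the level. The level was reached in both inputs by 159 members, in MA only by 5 and in NC only by 3. The members came from 41 families, and 5 of them (SLC2A4RG, SLC4A1AP, SLC7A6OS, SLC9A3R1 and SLC9A3R2) carry an SLC symbol although their products are partners or unrelated proteins and not carriers.

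The study used OMM2.3, a human uveal melanoma cell line, labelled wild type (wt). Cells had 24 h of meclofenamic acid (MA), a nonsteroidal anti-inflammatory drug that also inhibits the m6A demethylase FTO, or of DMSO as the control (NC). For each condition 1 input library gave transcript levels and 1 library of fragments bound by an antibody to m6A gave a list of peaks, 4 libraries in all. No group had a replicate, so there is no test and no p-value between conditions, and culture, library preparation and treatment cannot be told apart.

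N6-methyladenosine (m6A) is a methyl mark on internal adenosines of messenger RNA, set by a METTL3 and METTL14 complex, removed by FTO and ALKBH5, and bound by reader proteins that affect splicing, translation and decay. Solute carrier families are defined by sequence, and most have a typical substrate: SLC7 and SLC38 carry amino acids, SLC2 and SLC5 sugars, SLC25 metabolites of the mitochondrial inner membrane, SLC35 nucleotide sugars into the Golgi, and SLC30 and SLC39 move zinc in opposite directions. In pigment cells some carriers act in the melanosome, and in tumour cells amino acid, glucose and lactate carriers supply growth.

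The input totals that the FPKM scale divides by were recovered as 37041597 reads or fragments for DMSO and 41630895 for MA. All 7 melanocyte markers were expressed, with a summed level of 3172 FPKM in MA and 7307 FPKM in NC, and 4 of them were lower by 2-fold or more in MA. None of the immune, endothelial and epithelial markers reached 1 FPKM, and of the fibroblast markers only LUM did, at 12.0 FPKM with MA and 4.96 with DMSO. The part of these markers in the solute carrier differences was not tested. In bulk RNA fewer cells of a type and less RNA per cell cannot be told apart.

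The members with the largest input difference in each direction were SLC30A1, the zinc exporter of the plasma membrane, and SLC5A4, a member of the sodium-glucose transporter family. The 250 bases before the start of each are shown here, 5′ to 3′ on the gene's strand, from RefSeq on GRCh38.p14, because the data show these as the ends of the group. SLC30A1 (chr1:211579162-211579411, minus strand) and SLC5A4 (chr22:32255348-32255597, minus strand) are given with matches to the core of the metal response element (TGCACNC or TGCGCNC, both strands) and to TATAAA (both strands) in capitals.
SLC30A1: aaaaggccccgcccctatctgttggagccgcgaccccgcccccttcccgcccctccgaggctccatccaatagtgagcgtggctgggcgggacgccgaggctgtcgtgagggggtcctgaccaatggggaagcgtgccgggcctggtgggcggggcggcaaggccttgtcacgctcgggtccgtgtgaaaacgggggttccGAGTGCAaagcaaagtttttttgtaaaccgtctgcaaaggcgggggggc
SLC5A4: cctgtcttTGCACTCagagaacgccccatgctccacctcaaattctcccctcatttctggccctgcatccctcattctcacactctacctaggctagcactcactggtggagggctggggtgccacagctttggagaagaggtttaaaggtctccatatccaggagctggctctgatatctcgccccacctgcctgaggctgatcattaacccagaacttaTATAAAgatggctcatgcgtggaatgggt
In SLC30A1 the metal response element core lay on the other strand at 49 bases before the start, and a further match followed 25 bases after the start. SLC5A4 had 1 match to it at 242 bases before the start and a TATAAA at 29 bases before the start. Both motifs were picked after the values of these genes were known. Over windows of 300 bases (250 before and 50 after the start) the metal response element core occurred in 29.6% of 35116 promoters, and 8.60% held 2 matches or more. TATAAA occurred in 11.5%. Of the members, 134 were matched by symbol to the promoter table, and 63 of them (47.0%, against 33.4% of all 27305 genes in it) had a match to the metal response element core in at least 1 of their windows. Among the metal ion carriers this was 8 of 18. The TATAAA motif was found for 7 of the 134 members (5.22%, against 14.0% of all genes). A match describes letters in a window and is no evidence of binding.

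Most solute carrier transcripts, like most tested genes, were under 2-fold apart between the inputs on the scale used here. Differences are given as log2((MA FPKM + 1)/(NC FPKM + 1)), a scale that understates the difference of low genes. Of the 167 members, 12 were higher in MA by 2-fold or more (7.19%), where 10.3% of all tested genes were. Lower by as much were 7 (4.19%), where 2.98% of all tested genes were. Between lay 148 members, and 9162 of the 10564 tested genes. The median difference was -0.04 for the members and 0.11 for all tested genes. Below 0 were 88 members (52.7%, against 43.3% of all tested genes). With every difference taken relative to the all-gene median, the median of the members was -0.15. The counts became 8 higher (4.79%, against 7.16% of all tested genes) and 12 lower (7.19%, against 4.16%), with SLC20A1, SLC25A30, SLC38A2 and SLC43A2 under 2-fold. As TPM the medians were 0.03 for the members and 0.20 for all tested genes. The choice of pseudocount also moved the counts. With 0.1, 15 members were higher (8.98%, against 17.0% of all tested genes) and 11 lower (6.59%, against 4.26%). With 5, where 8 of the 19 genes stayed at 2-fold, 5 were higher (2.99%, against 2.58%) and 3 lower (1.80%, against 1.46%), so the share of higher members was then no longer below that of all tested genes. The input levels chose the members, so a member that reached the level in 1 input only had to differ. Just outside the level were SLC7A4 (0.311 FPKM in MA, 0.944 in NC) and SLC7A7 (0.975 and 0.231), and just inside SLC2A13 (1.07 and 0.587) and SLC12A2 (1.08 and 1.07).

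**Figure D1:**
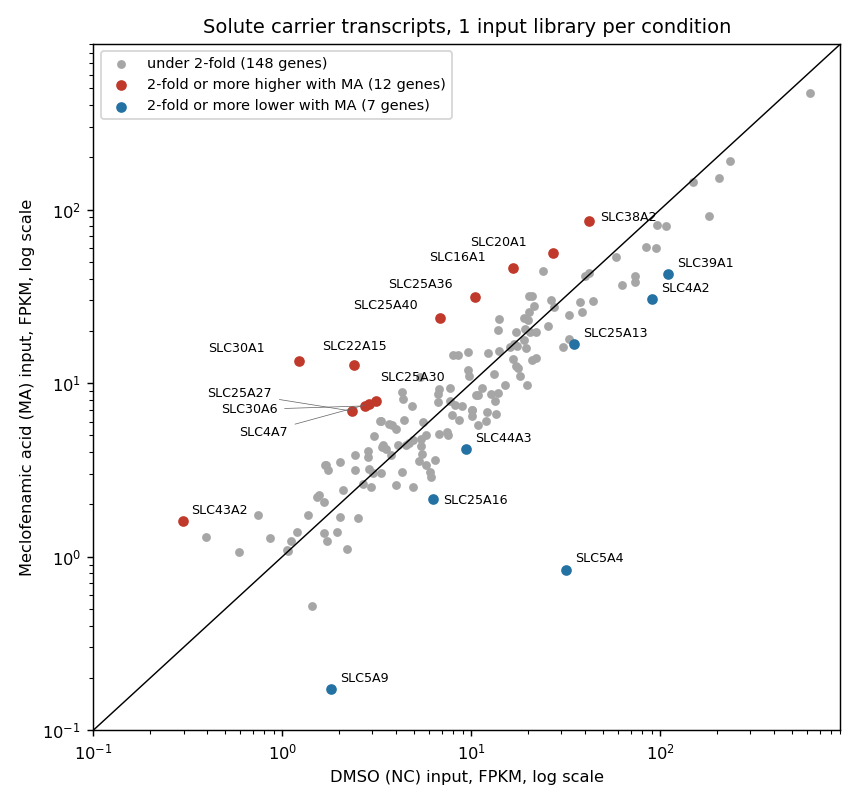
Input levels of the 167 solute carrier members, with DMSO (NC) on the horizontal and meclofenamic acid (MA) on the vertical axis, both in FPKM on log scales. Each point is 1 gene from 1 library per condition, the line marks equal levels, and the 12 red and 7 blue genes are those 2-fold or more apart on the log2(FPKM + 1) scale, with SLC30A1 and SLC5A4 farthest from the line.

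Levels covered a wide range. FPKM is per length, so levels can be set beside each other between genes. The median member was at 7.94 FPKM in NC and 7.60 in MA, 58 members were at 10 FPKM or more in both inputs and 4 at 100 or more in both. The highest was SLC25A5, the ADP/ATP carrier of the mitochondrial inner membrane, at 472 FPKM with MA and 621 with DMSO (-0.40). It has close paralogs in SLC25A4 and SLC25A6, so how reads were split among them is uncertain. The other 3 were the glutamine carrier SLC1A5 (190 and 233, -0.29), the leucine carrier SLC7A5 (152 and 204, -0.42) and the citrate carrier SLC25A1 (144 and 149, -0.05). A level of 100 in both inputs leaves out genes that reached it in NC only. These were SLC35B2 (92.2 in MA and 181 in NC, -0.97), SLC39A1 (42.3 and 110, -1.36) and SLC39A7 (80.7 and 108, -0.41).

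The zinc transporter families SLC30 and SLC39 differed in their median. All 6 SLC30 members, a family best known for moving zinc out of the cytosol, were above 0, where 5991 of 10564 tested genes were. Their median difference was 0.73. All 6 stayed above 0 under both rescalings, and a pseudocount cannot change the sign of a difference. The 9 SLC39 members, which bring zinc into the cytosol, had a median of -0.29, with 4 above 0 and 5 below. After rescaling to a median of 0, 2 were above and 7 below.
SLC30A1 was at 13.5 FPKM with MA and 1.22 with DMSO, which is 2.70 on the log2 scale and the highest of all members. Its log2 ratio without a pseudocount was 3.46 (95% interval 3.28 to 3.64). SLC30A6, a Golgi zinc transporter, was at 7.39 and 2.74 FPKM (1.16). The mitochondrial SLC30A9 (14.4 in MA and 8.01 in NC, 0.78), SLC30A7 (3.37 and 1.71, 0.69) and SLC30A5 (15.1 and 9.59, 0.60), both of the secretory pathway, and the vesicular SLC30A3 (2.21 and 1.52, 0.35) were under 2-fold on this scale. SLC39A1, a zinc importer of the plasma membrane, went the other way, at 42.3 FPKM with MA and 110 with DMSO (-1.36). SLC39A7, which releases zinc from the endoplasmic reticulum, was at 80.7 and 108 (-0.41). SLC39A4 (-0.58) and SLC39A13 (-0.51) were also below 0, while SLC39A10 was highest of its family at 3.87 and 2.41 FPKM (0.51). The SLC39 count does not hold SLC39A14, which the rule left out. The 20 metal ion carriers, which also include copper, magnesium and heme carriers, had a median of 0.15. By 2-fold 2 were higher (10%, against 10.3% of all tested genes) and 1 lower (5%, against 2.98%).

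**Figure D2:**
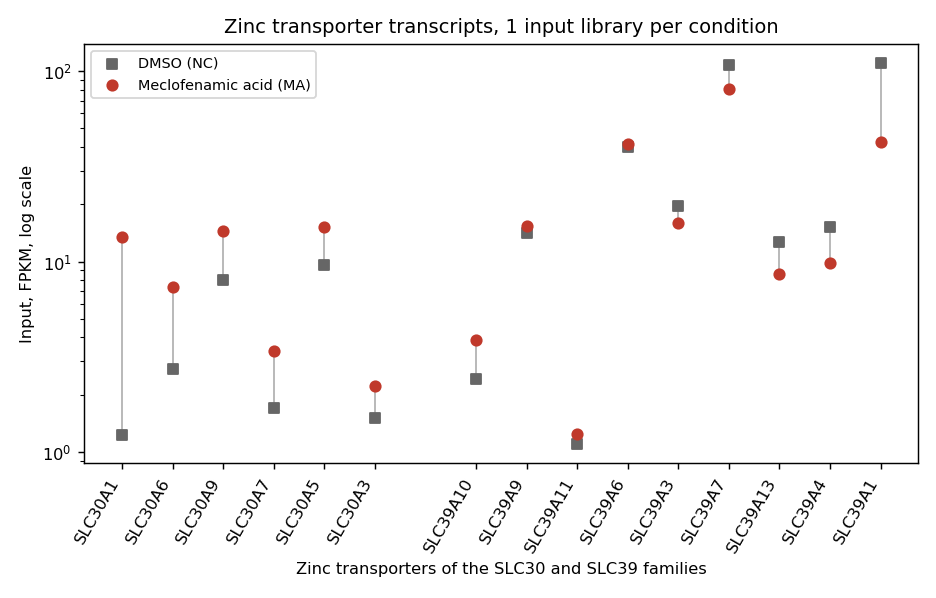
Input level in FPKM on a log scale (vertical axis) of each SLC30 and SLC39 zinc transporter among the members (horizontal axis), in DMSO (grey squares) and meclofenamic acid (red circles), 1 library each. All 6 SLC30 genes are higher in MA, and SLC39A1 has the largest gap of the SLC39 genes, 42.3 against 110 FPKM.

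Amino acid and peptide carriers had a median of -0.17 over 26 genes. By 2-fold 0 were lower (against 2.98% of all tested genes) and 2 higher (7.69%, against 10.3%). Both were carriers of neutral amino acids: SLC38A2, which is sodium-coupled, was at 86.2 FPKM with MA and 41.9 with DMSO (1.02), and SLC43A2 was at 1.60 and 0.296 (1.00). SLC43A2 reached the level only in MA. All 6 members with an SLC7 symbol were below 0, under both rescalings too, with a median of -0.28. They were the leucine carriers SLC7A5 and SLC7A8 (60.3 in MA and 94.6 in NC, -0.64), the arginine carriers SLC7A1 (53.4 and 58.4, -0.13) and SLC7A2 (-0.17), SLC7A6 (-0.17) and the non-carrier SLC7A6OS (-0.38). SLC7A11 was outside the members by the rule, so this holds for the listed 6 and not for the family. Across the 26 genes the differences went from -0.95 to 1.02.

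Sugar and polyol carriers held the member with the largest difference of all. SLC5A4 was at 0.842 FPKM with MA and 31.9 with DMSO, which is -4.16 on the log2 scale, from 91 and 3063 minimum reads. On that scale, with a pseudocount of 1, it was also the lowest of all 10564 tested genes. Without a pseudocount its log2 ratio was -5.24 (-5.56 to -4.94). SLC5A9, of the same family, was at 0.172 in MA and 1.81 in NC (-1.26). The sodium-coupled inositol carrier SLC5A3, in contrast, was at 6.07 and 3.27 (0.73). All 5 members with an SLC2 symbol, 4 sugar and inositol carriers and the regulator SLC2A4RG (31.9 in MA and 20.2 in NC, 0.63), lay above 0, from 0.31 to 0.63. All 4 members with an SLC37 symbol lay below 0, with a median of -0.54. Both of these directions held under both rescalings. SLC50A1, a sugar uniporter, was at 44.4 and 24.1 FPKM (0.86). The class of 16 had a median of 0.05. By 2-fold 0 were higher (against 10.3% of all tested genes) and 2 lower (12.5%, against 2.98%). SLC5A4 and SLC5A9 reached the level in NC only, as did SLC37A2.

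The SLC25 carriers of mitochondria were the largest class, with 37 members and a median of -0.10. By 2-fold 4 were higher (10.8%, against 10.3% of all tested genes) and 2 lower (5.41%, against 2.98%). The higher members were SLC25A40, SLC25A36, SLC25A27 and SLC25A30. SLC25A40, linked to mitochondrial glutathione import, was at 23.8 FPKM with MA and 6.85 with DMSO (1.66), and SLC25A36, a pyrimidine nucleotide carrier, at 31.2 and 10.5 (1.49). SLC25A27, of the uncoupling protein group, was at 6.89 and 2.34 (1.24), and SLC25A30 at 7.89 and 3.15 (1.10). Lower were SLC25A16, at 2.15 in MA and 6.25 in NC (-1.20), and the aspartate and glutamate carrier SLC25A13, at 16.8 and 35.0 (-1.02). SLC25A13 was under 2-fold as TPM, at -0.97. Of the class, 23 members lay below 0 (62.2%, against 43.3% of all tested genes).

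In the class of inorganic ions and acid equivalents, 14 of 21 members lay above 0, where 5991 of 10564 tested genes did. The class median was 0.20, against 0.11 for all tested genes. The 21 include the non-carriers SLC4A1AP (0.70), SLC9A3R1 (0.20) and SLC9A3R2 (-0.39). The phosphate carrier SLC20A1 was at 55.9 FPKM with MA and 27.2 with DMSO (1.01), and SLC4A7, a sodium bicarbonate cotransporter that brings base into the cell, at 7.60 and 2.89 (1.15). SLC4A2, a chloride bicarbonate exchanger of the same family that takes base out, was at 30.4 and 90.8 (-1.55). Of the 3 carboxylate carriers, SLC16A1, which carries lactate and pyruvate, was at 45.9 in MA and 16.5 in NC (1.42), while SLC16A6 (42.9 and 42.1, 0.03) and SLC16A4 (8.59 and 10.9, -0.31) were close to equal or lower.

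The SLC35 family, best known for nucleotide sugar carriers and taken here by symbol, had no member at 2-fold on the log2(FPKM + 1) scale. Its median was 0.01 over 21 genes. The farthest from 0 on that scale were SLC35B2 and SLC35A1. SLC35B2, which carries the sulfate donor PAPS into the Golgi, was at 92.2 FPKM with MA and 181 with DMSO (-0.97). SLC35A1, the CMP-sialic acid carrier, was at 8.93 and 4.32 (0.90). Without a pseudocount the log2 ratio of SLC35A1 was 1.05. That of SLC35A3, at 1.29 FPKM with MA and 0.396 with DMSO, was 1.71 (1.41 to 2.01). SLC35A4, next to SLC35B2 in the mean level of both inputs, was at 24.7 and 32.9 (-0.40). SLC35E2A and SLC35E2B are near-identical copies, so how reads were split between them is uncertain.

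Carriers of organic ions, fatty acids and vesicular cargo had the lowest class median, -0.45 over 11 genes, although they held SLC22A15, which came after SLC30A1 among the members higher in MA. This organic zwitterion carrier was at 12.7 FPKM with MA and 2.40 with DMSO (2.01). At the low end was the fatty acid transport protein SLC27A4, at 6.62 and 13.6 (-0.94), while its relative SLC27A1 was at 19.8 and 17.3 (0.18). SLC22A18 was at 13.9 and 22.1 (-0.63). Carriers of nucleosides, vitamins and cofactors followed, with a median of -0.31 over 12 genes. SLC44A3, of the choline carrier family, was at 4.15 in MA and 9.39 in NC (-1.01), the vitamin C carrier SLC23A2 at 38.0 and 73.7 (-0.94) and the nucleoside carrier SLC29A1 at 29.6 and 44.0 (-0.56).

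**Figure D3:**
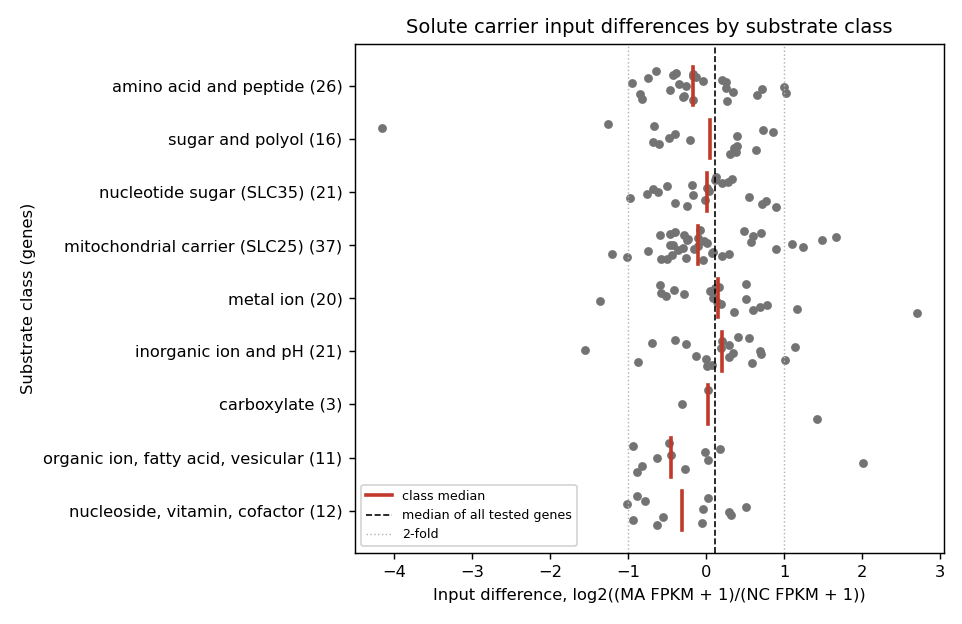
Input difference of each solute carrier member (grey points, horizontal axis, log2 scale with a pseudocount of 1) by substrate class (vertical axis, number of genes in brackets), with class medians as red bars. The dashed line is the all-gene median of 0.11 and the dotted lines mark 2-fold; the class medians lie between -0.45 and 0.20.

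Counting error was small beside the 2-fold differences: the 95% counting interval of the log2 ratio left out 0 for all 19 of these members, and it also did so for 126 of the other 148. The lowest number of minimum reads behind any of the 19 was 38. These intervals hold for the libraries and not for the treatment. Of the 19 members, 12 overlap the span of another annotated gene, as did 93 of the 162 members matched to the annotation (57.4%), and the strand setting of the counting is not given in the sources used here. For SLC5A4 these include the antisense gene SLC5A4-AS1 and for SLC25A30 the antisense gene SLC25A30-AS1, so reads of either gene of such a pair cannot be told apart.

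The members differed from other genes in how the difference went with recovered length. This is the smallest length that fits both FPKM values, so it can be a fraction of the transcript length. SLC39A7, for example, had 614 bp but 1233 bp of MA peaks, so some genes may sit in a wrong length group. Over all tested genes the median difference was -0.04 in the shortest of 3 equally large length groups, 0.11 in the middle group and 0.28 in the longest. For the members it was 0.09 (41 genes), -0.22 (72 genes) and 0.01 (54 genes). With rising level the medians were lower in both sets: the members had medians of 0.10 under 5 FPKM, -0.14 from 5 to 20 and -0.26 from 20 on, where all tested genes had 0.35, 0.15 and -0.14. In each level group the members were the lower, and none of these gaps was tested.

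**Figure D4:**
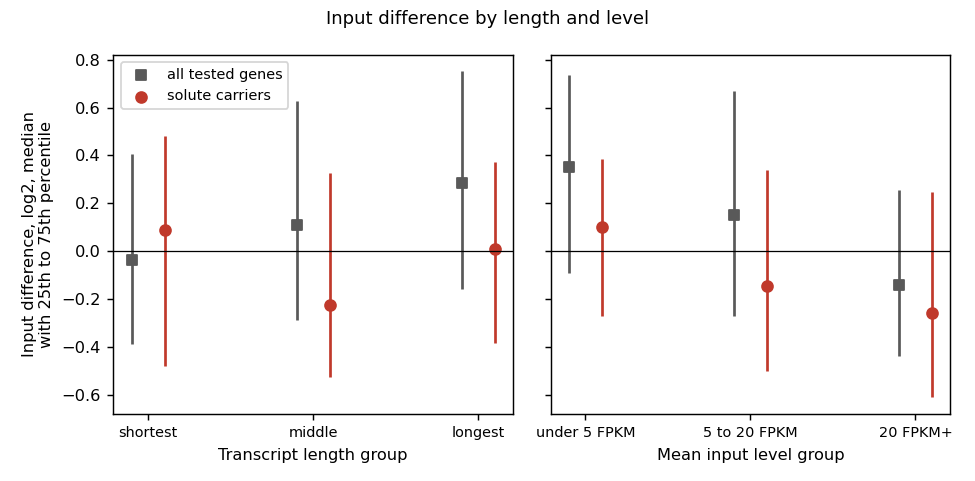
Median input difference (vertical axis, log2 scale, points) with the 25th to 75th percentile (lines) for all tested genes (grey) and solute carrier members (red), by length group (left) and mean input level group (right). The length is the smallest that fits both FPKM values and can be a fraction of the transcript length. In the longest group all tested genes have a median of 0.28 and the solute carriers 0.01.

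Carriers whose symbol does not begin with SLC and a digit, and helper proteins of carriers, were taken as a list of 63 genes. Of the list 42 were tested. Of these 42, 2 were higher by 2-fold and 0 lower, where 10.3% and 2.98% of all tested genes were. Above 0 were 16, and the median was -0.12. The phosphate exporter XPR1 was at 9.87 FPKM with MA and 3.13 with DMSO (1.40) and the uncoupling protein UCP2 at 7.29 and 2.82 (1.12). At the low end were MFSD3 (6.52 and 13.9, -0.99) and the lysosomal and melanosomal cysteine carrier MFSD12 (283 and 519, -0.87). Of the 8 SLC genes that the rule left out, 6 were tested, with 2 higher and 1 lower by 2-fold and a median of 0.26.

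Solute carrier transcripts carried m6A peaks in both conditions, with fewer peaks listed in MA. The NC list had 278 peaks in 141 members and the MA list 246 peaks in 132, so that 84.4% and 79.0% of members had a peak, where 83.3% and 80% of all tested genes did. Peak fold enrichment (immunoprecipitate over input), p-value and false discovery rate are the authors' own. The number of peaks called depends on the depth of the immunoprecipitates, which is not known here, and the lists as a whole had 22086 and 19943 peaks. In both lists 127 members (76.0%) had a peak. A peak in NC only was listed for 14 members (8.38%, where 7.29% of all tested genes had one) and in MA only for 5 (2.99%, where 4.04% did). No peak at all was listed for 21 members (12.6%, against 12.7%). Fewer peaks in MA than in NC were listed for 47 members (28.1%, against 31.2%) and more for 29 (17.4%, against 19.7%). Each of these shares was close to its background. SLC genes outside the members had 24 further peaks in NC and 16 in MA.

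Member peaks lay in the 3' UTR more often than all peaks did, by more than counting error. In members, 56.8% of NC peaks (exact 95% interval 50.8 to 62.7%) and 62.2% of MA peaks (55.8 to 68.3%) were annotated to the 3' UTR, where 42.2% of all NC peaks and 42.9% of all MA peaks were. Peaks annotated as exon made up 15.1% and 15.4% in members and 33.8% and 34.0% over all peaks. The 5' UTR had 17.3% of member peaks in NC and 13.4% in MA, with counting intervals that overlap. Peaks lay within 1 exon in 75.2% and 74.8% of cases, against 59.8% and 55.9% of all peaks. These intervals cover counting error only, and peaks of 1 gene are not independent. How the annotation ranks a peak that fits several features is not given in the sources used here.

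Of the 278 NC regions of members, 207 overlapped a MA region by at least 1 bp (74.5%, 68.9 to 79.5%), and of the 246 MA regions 204 overlapped a NC region (82.9%, 77.6 to 87.4%). Over all peaks these shares were 73.8% and 79.7%. Within its own list, a member peak that lacked a partner was typically short and weakly enriched: the median fold was 2.54 for such NC peaks and 4.00 for shared ones, and 2.33 and 3.29 for those of MA. Their median lengths were 151 bp against 350.0 bp in NC and 201 bp against 350.0 bp in MA. With an overlap of 50% of both regions the shares were 52.9% and 59.8%.

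By substrate class, sugar and polyol carriers had 30 peaks in NC and 21 in MA, and 5 of the 16 genes had a peak in NC only (SLC5A4, SLC2A11, SLC2A13, SLC37A2 and SLC37A4). SLC5A4, SLC2A13 and SLC37A2 were below 1 FPKM in 1 input. Amino acid carriers had 49 and 37 peaks, SLC25 carriers 49 and 40 and carboxylate carriers 5 and 3. The 6 members with an SLC7 symbol had 16 and 10. SLC35 genes had 28 and 31, with a peak in both lists for 20 of 21 genes. Metal ion carriers had 38 in each list, the SLC30 genes 10 in each and the SLC39 genes 20 and 19. No peak in either list was found for 9 of the 37 SLC25 carriers (24.3%, against 12.7% of all tested genes). Among them were SLC25A5 and SLC25A1 at the top of the level range. The share was larger for carriers of organic ions, fatty acids and vesicular cargo, 4 of 11 (36.4%).

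**Figure D5:**
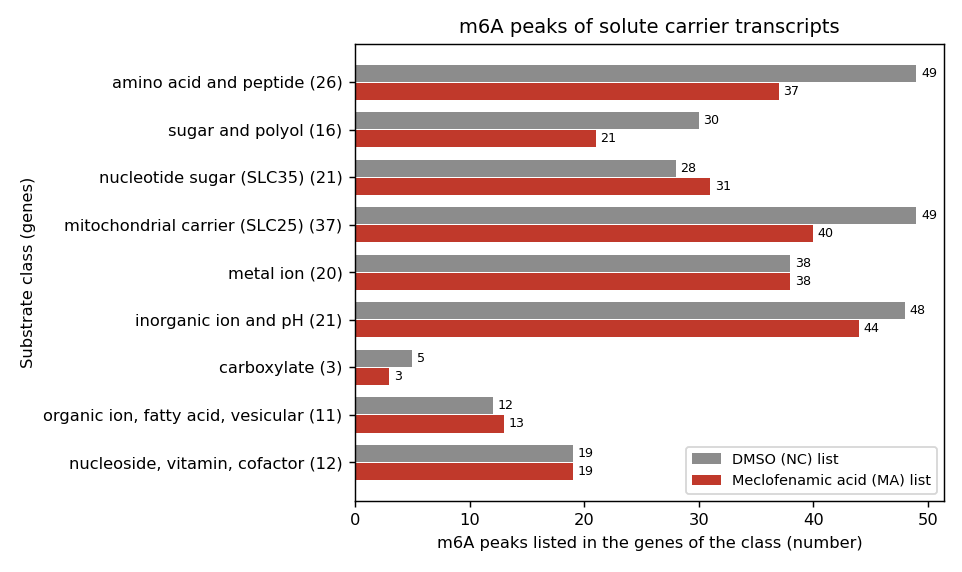
Number of m6A peaks listed in solute carrier members (horizontal axis) by substrate class (vertical axis, number of genes in brackets), in the DMSO list (grey) and the meclofenamic acid list (red), 1 list per condition. Sugar and polyol carriers have 30 and 21 peaks, SLC35 genes 28 and 31, and metal ion carriers 38 in both.

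Of the 12 members higher in MA by 2-fold, 11 had a peak in both lists, where 85.0% of all such genes did, with 19 peaks in NC and 18 in MA, and SLC25A40 had none. Of the 7 lower members 2 (SLC25A16 and SLC5A9) had a peak in both, where 66.3% of all such genes did, and all 7 together had 7 peaks in NC and 5 in MA. SLC30A1 had 3 peaks in each list. A pair over its 3' UTR and exon was shared, at chromosome 1, 211575463 to 211575912 (fold 9.33) and 211576112 to 211578212 (fold 9) in NC and at 211575163 to 211576012 (fold 3.62) and 211576112 to 211578312 (fold 1.87) in MA (GRCh38.p13). A peak annotated to the start codon, 211579011 to 211579161 (fold 2.75), was listed in NC only, and one in the 3' UTR, 211572467 to 211572667 (fold 2.00), in MA only. SLC5A4 had 1 peak, in NC, over exons at chromosome 22, 32218522 to 32220962 (fold 2.54). Its input level in MA was 0.842 FPKM, so the absence of a MA peak is not separable from its low level there. SLC4A2 had 1 peak, in MA, at the start codon (chromosome 7, 151061937 to 151062595, fold 1.77).

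Most members in a single list were transcripts at 5 FPKM or more in both inputs, 8 in NC and 5 in MA. The nucleoside carrier SLC29A1 had 3 peaks in NC and none in MA, with input levels of 44.0 and 29.6 FPKM. They lay at the start codon (chromosome 6, 44223595 to 44223794, fold 2.33), in the 5' UTR (44223894 to 44226148, fold 2.17) and in the 3' UTR (44233596 to 44233745, fold 1.65). The others in NC only had 1 peak each: the oxoglutarate carrier SLC25A11 (fold 12), the zinc importer SLC39A4 (6), the glucose 6-phosphate carrier SLC37A4 (2.93), the creatine carrier SLC6A8 (2.26), the riboflavin carrier SLC52A2 (2.09), the vesicular polyamine carrier SLC18B1 (1.94) and the mitochondrial phosphate carrier SLC25A3 (1.86). In MA only there were SLC66A3 (fold 3.00), the ADP/ATP carrier SLC25A4 (2.11), SLC25A13 (1.96), SLC4A2 and the zinc carrier SLC39A13 (1.60). SLC25A11 and SLC39A4 stand out by their fold, while 9 of the other single peaks had folds under 3.

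The most enriched shared peaks of genes at 5 FPKM or more lay mainly near the ends of transcripts. In NC they were in SLC35D2 (chromosome 9, 96320837 to 96322041, 3' UTR, fold 9.57), the lysosomal arginine and lysine carrier SLC66A1 (chromosome 1, 19328685 to 19329232, 3' UTR, 8.48) and SLC38A10 (chromosome 17, 81244911 to 81245210, stop codon, 8.00). SLC25A36, one of the higher members in MA, followed (chromosome 3, 140970992 to 140976765, 3' UTR, 7.78), and the sulfate carrier SLC26A11 was the fifth (chromosome 17, 80252707 to 80253105, 3' UTR, 7.11). SLC26A11 had the same peak in MA (7.80). The others in MA were SLC35C2 (chromosome 20, 46358501 to 46358949, 5' UTR, 10.0), the branched-chain amino acid carrier SLC25A44 (chromosome 1, 156212547 to 156212796, stop codon, 8.40), SLC39A9 (chromosome 14, 69398759 to 69399356, 5' UTR, 6.50) and SLC25A29 (chromosome 14, 100292368 to 100292667, exon, 6.17). Fold values of the lists are not compared with each other.

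Among peaks without a partner, SLC25A11 led in NC with a stop codon peak (chromosome 17, 4937279 to 4937477, fold 12). SLC25A33 (chromosome 1, 9583788 to 9583937, 3' UTR, 7.00), SLC39A4 (chromosome 8, 144415233 to 144415917, exon, 6), SLC4A1AP (chromosome 2, 27665181 to 27668852, exon, 5.17) and SLC16A4 (chromosome 1, 110389305 to 110390932, 5' UTR, 4.50) followed. The deposited false discovery rate of the SLC25A33 peak was 0.197. In MA the plasma membrane monoamine carrier SLC29A4 led (chromosome 7, 5303664 to 5304063, stop codon, fold 5.00), before SLC66A3 (chromosome 2, 11180985 to 11181183, 3' UTR, 3.00), SLC39A9 (chromosome 14, 69461594 to 69461843, 3' UTR, 2.95), SLC35E2A (chromosome 1, 1728592 to 1728940, 3' UTR, 2.75) and SLC12A9 (chromosome 7, 100865821 to 100866019, exon, 2.60).

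A few members held many peaks. SLC45A4, a proton-coupled sugar carrier family member, had 7 in NC and 6 in MA, with input levels of 2.52 and 1.68 FPKM, and 5 of the NC peaks had a partner. SLC25A44 had 6 and 5, and the sulfate carrier SLC26A2 6 and 4. SLC22A23, an orphan of the organic ion family, had 5 and 6 peaks, all of them shared, over 3150 bp in NC and 3101 bp in MA. SLC39A3, a zinc importer, had 4 and 6, with 2 of the MA peaks unshared. SLC5A3 had 5 and 3 peaks but similar covered lengths, 2200 bp in NC and 2247 bp in MA, because a MA peak of 1447 bp overlapped a pair of NC peaks. At the other end, SLC7A5 had 4 peaks in NC and 1 in MA. Its shared peak lay in the 3' UTR (chromosome 16, 87830767 to 87831512 in NC and 87830966 to 87831463 in MA), and those without a partner were 2 in the 3' UTR and 1 in the 5' UTR, with folds of 3.33, 1.57 and 1.65.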

How the data were processed

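The series holds 4 libraries of OMM2.3 cells, 1 input and 1 m6A immunoprecipitate for each of MA and NC. Poly(A) RNA was fragmented and bound to beads with an antibody to m6A, per the labels' protocols. FPKM values of both inputs were deposited by the authors in 1 gene table. Each listed peak has a width, a feature, a p-value and a false discovery rate, per the file headers. Its fold enrichment is a deposited ratio of immunoprecipitate over input, used here for ranks and filters inside 1 list. Trimmomatic, HISAT, HISAT2, ChIPseeker, deepTools and the build GRCh38.p13 appear in the submitters' processing notes. Which counter, peak caller, thresholds and annotation release were used is not given in the sources used here.

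Differences used a pseudocount of 1 for the 10564 genes at 1 FPKM or more in either input, and a log2 difference of at least 1 counted as 2-fold. Whole reads were recovered from the FPKM values: all 13055 genes above 0 in both inputs resolved (100%, against 5.05% once the MA values were multiplied by a factor near 1), at totals that gave the RefSeq length in 174 genes, against 35 at the next best. They are the smallest reads that fit, and the exact 95% binomial intervals from them cover counting error only, since reads copied by PCR, with no molecular identifiers, need not be independent molecules. Repeated rows of a peak in a gene were counted as 1 peak, starts were raised by 1, and peaks overlapping by at least 1 bp on the same strand, introns included, were shared. Exact (Clopper-Pearson) intervals were used for shares. Read recovery and overlap were tested on simulated data.

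The members and lists were chosen with earlier results of these data known. Named input genes are all members 2-fold apart and, per class, the 2 highest and the 2 farthest from 0; members of the SLC2, SLC7, SLC30, SLC37 and SLC39 families and SLC5A3 were added after their values were seen. Peaks named are the 5 of highest fold among shared, NC only and MA only peaks of members at 5 FPKM or more in both inputs, the members with most peaks (1 of them is not reported here), and single-list members; peaks of SLC30A1, SLC5A4 and SLC7A5 were added. Symbols of 162 members matched the RefSeq table (GRCh38.p14), used for names and overlaps. Peak sequences were not analysed here. Python 3.11.15, numpy 2.4.6, pandas 2.3.3, scipy 1.17.1 and matplotlib 3.10.9 were used.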

Additional observations from a re-analysis of the deposited data

How the results depend on the processing

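No paired analysis was possible because each group had 1 library, and for the same reason no replicate could be left out. The input counts of 12 higher and 7 lower members depended on the pseudocount: the lower count was 11 with 0.1 (6.59%, against 4.26% of all tested genes), and with 5 the counts were 5 (2.99%, against 2.58%) and 3 (1.80%, against 1.46%). Of the 19 members, 19 stayed at 2-fold with 0.1, 8 with 5, 18 as TPM and 15 after rescaling to a median of 0, where the lower count was 12 (7.19%, against 4.16% of all tested genes). Under the latter SLC20A1 (0.90), SLC25A30 (0.99), SLC38A2 (0.91) and SLC43A2 (0.89) were under 2-fold. None of these 4 settings could turn the sign of a 2-fold difference: a pseudocount never does, and both rescalings shift too little. The median of -0.04 was -0.19 with a filter of 5 FPKM, 0.03 as TPM and 0.01 without a filter, each below the all-gene median of the same setting (0.05, 0.20 and 0.03). With peaks at a fold of 3 or more there were 179 NC and 140 MA peaks, 22 members in NC only and 9 in MA only, and 63.1% of NC regions were shared. The shares of all tested genes at this fold were not computed, so the counts of 22 and 9 have no background here. With an overlap of 50% of both regions 52.9% and 59.8% were shared, and for peaks within 1 exon 68.9% and 75.5%. With equal peak numbers the shares were 79.3% of NC and 78.9% of MA regions, so the order of the lists turned, and both lists had 246 member peaks. Putting the 8 genes back, counting every deposited row and leaving out ids with a suffix moved no count by more than 1.5 times. An overlap by exon blocks was not run. Depth limits low members most, and the depth of the immunoprecipitates is unknown.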

Other observations

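Beside the zinc carriers, and named after its values were seen, the metallothionein MT2A, a zinc-binding protein, was at 34.3 FPKM with MA and 9.43 with DMSO (1.76 on the log2 scale). MTF1, the factor that binds metal response elements, was at 2.87 and 2.52 (0.14). The other metallothionein genes looked up, MT1A, MT1E and MT1M, were each under 0.1 FPKM in both inputs. Both folate carriers among the members, chosen after their values were seen, lay below 0, SLC19A1 at -0.63 and SLC46A1 at -0.79, as did the riboflavin carrier SLC52A2, at 16.0 FPKM with MA and 30.6 with DMSO (-0.89). None of these differences has a replicate.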
